A study of Mus musculus with 8 samples.

Results

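Lactylation of histone H4 at lysine 12 (H4K12la) was examined at 8 genes of the PI3K, AKT and mTOR pathway, Pik3cd, Pik3r1, Akt1, Akt2, Tsc1, Tsc2, Mtor and Rptor, out of 21887 protein-coding genes of the same chromosomes. Each gene was taken as its RefSeq span on the mouse build GRCm38 plus 2 kb on both sides, and every peak that overlapped this window by at least 1 base was kept. All 8 genes were found, and their windows held 186 peaks in the microglia lists and 122 in the total cell lists. The mark was profiled by CUT&Tag, in which an antibody tethers a transposase to marked chromatin and the cut fragments are sequenced. The 8 libraries came from microglia of 5XFAD mice, microglia of wild-type (WT) mice, total cells of 5XFAD mice and total cells of WT mice, with 2 libraries in each group. The brain without cerebellum was dissociated and myelin was removed in all groups, and microglia were then taken with CD11b beads. The 5XFAD line models Alzheimer disease through mutated human amyloid precursor protein and presenilin transgenes, driven by a mouse Thy1 promoter in neurons. The labels do not state age or how many animals went into a library, so each p-value reflects the spread between libraries, which may be technical.

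The pathway carries growth factor, insulin and immune receptor signals to cell metabolism. Class I PI3K, a catalytic p110 subunit held by a regulatory p85 subunit, makes the membrane lipid PIP3, which recruits the kinase AKT. Active AKT phosphorylates TSC2 and so relieves the block that the TSC1-TSC2 complex places on the GTPase Rheb, which switches on mTOR complex 1, the kinase mTOR with its scaffold Raptor. In macrophages and microglia mTOR complex 1 is known for its control of glycolysis, the source of the lactate from which the lactyl mark is derived.

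The lists give positions and a score per peak and no reads, so depth is unknown and a missing peak means only that none was listed. A score percentile is the rank of a peak within its own list, and the score is the authors' own value. The lists held 22300 to 41783 peaks in microglia and 22543 to 32967 in total cells, and they covered 15.3 to 36.3 Mb in microglia against 7.78 to 14.8 Mb in total cells, with median peak widths of 580 to 734 bp against 287 to 366 bp. Of 18 microglial markers, 15 had a peak in all 4 microglia libraries and 3 in all 4 total cell libraries, and their summed covered percent was 169 to 345 in microglia and 10.5 to 41.5 in total cells. Of 8 neuronal markers, 5 (Snap25, Tubb3, Slc17a7, Gad1 and Gad2) had no peak in any library. The neuronal sums overlapped, at 0.104 to 0.265 in microglia and 0 to 0.988 in total cells. The oligodendrocyte and vascular lists were also covered more in microglia. Their sums were 12.1 to 36.3 in microglia and 0.182 to 8.34 in total cells for oligodendrocytes. For vascular cells they were 12.1 to 21.5 in microglia and 0.704 to 7.69 in total cells. The astrocyte sums were 9.71 to 26 in microglia and 7.73 to 9.7 in total cells, and those of other leukocytes 0.838 to 13.2 in microglia and 0 to 4.96 in total cells. A bulk list cannot tell more marked cells from more mark per cell. The part of list length, peak width and cell makeup in the differences below was not tested, apart from the values with equal list lengths and the density given beside them.

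All 8 genes had a peak in at least 1 library of each preparation, as did 11705 of all 21887 protein-coding genes. Of the 8, 4 (Pik3cd, Pik3r1, Mtor and Rptor) were covered more in every microglia than in every total cell library (18.5% of all genes). A peak was present in all 8 libraries at 4 of the 8 genes (Pik3r1, Akt2, Mtor and Rptor), against 26.7% of all protein-coding genes, and 0 of the 8 lacked a peak everywhere (34.0% of all genes). In all 4 microglia libraries 6 of 8 had a peak (39.0% of all genes), and likewise 6 of 8 in all 4 total cell libraries (33.0% of all genes). Pik3cd and Tsc1 were the exceptions in total cells, and Akt1 and Tsc2 in microglia. The windows of these genes are long, with a median of 55789 bp against 21169 bp for all genes, and a long window meets more peaks. As a measure less bound to length, the covered percent is the share of the window that lies under peaks. Its median over the 8 genes was 4.39% in microglia and 1.36% in total cells, against 0.947% and 0.442% over all genes. The all-gene median counts the genes with no peak as 0. Per library, the mean over all genes was 1.84% to 4.45% in microglia and 0.967% to 1.74% in total cells. The median of the 8 genes per library was 1.87% to 6.65% in microglia and 0.643% to 2.16% in total cells, which is nearer to those means.

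**Figure D1:**
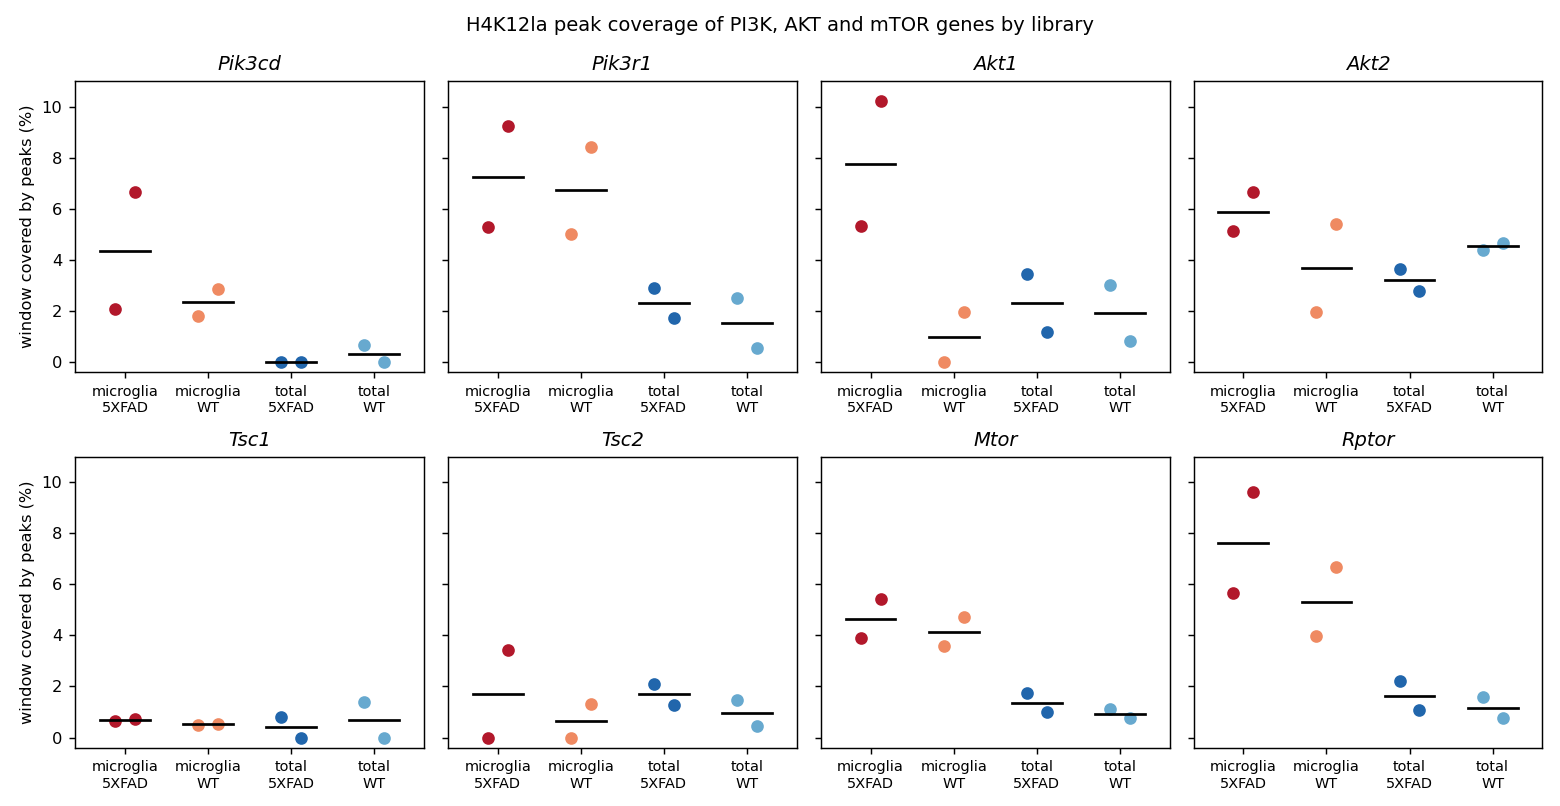
Percent of each gene window (gene span plus 2 kb on both sides) under H4K12la peaks, on a common linear axis; points are single libraries, bars are means of the 2 libraries of a group. The microglia points of Pik3cd, Pik3r1, Mtor and Rptor all lie above their total cell points, and Akt2 has its total cell WT points (4.38% and 4.66%) above those of total cells 5XFAD.

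Pik3cd encodes p110 delta, the catalytic subunit found mainly in leukocytes, and its marking was almost confined to microglia in these lists (gene 18707, chromosome 4, 149649168 to 149702566, minus strand). Peaks covered 2.07% and 6.65% of its window in 5XFAD microglia and 1.8% and 2.86% in WT microglia. In total cells there was none in either 5XFAD library, 0.641% in WT 1 and none in WT 2. All 4 microglia values lay above all 4 total cell values, with means of 3.35 ± 2.25% in microglia and 0.16 ± 0.321% in total cells (SD, n = 4 each). The difference of 3.19 percentage points had an exact two-sided permutation p of 0.0286, the smallest that 4 against 4 libraries can give, and 0.142 after Benjamini-Hochberg adjustment over all 21887 genes. The peaks of Pik3cd were weak and scattered. Of 11 merged regions, 10 were found in microglia only and 6 in a single library, and none was in all 4 microglia libraries. Those found in most libraries were a region just upstream of the annotated start end (149702570 to 149703001) and one 8.47 to 9.22 kb inside (149693344 to 149694093), each in both 5XFAD and in 1 WT microglia library. The highest percentile of any Pik3cd peak was 25.8 and 45.5 in the 5XFAD and 17.9 and 43.8 in the WT microglia lists, while the lone total cell peak stood at 88.4. A far-end region (149646599 to 149647772, in 5XFAD 2 and WT 2 microglia) also overlaps Clstn1. The gap depended on low-scoring peaks: it was 0.907 points with equal list lengths (exact permutation p = 0.143) and -0.16 when the lower-scoring peaks of each list, below its median, were left out.

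Pik3r1 encodes p85 alpha, the regulatory subunit that stabilises p110 and docks it to receptors (gene 18708, chromosome 13, 101680761 to 101768217, minus strand). It had a peak in every library and was covered more in microglia: 5.28% and 9.24% in 5XFAD microglia with 5.0% and 8.43% in WT microglia, against 2.88% and 1.7% in 5XFAD total cells with 2.51% and 0.538% in WT total cells. The preparations did not overlap, and the difference was 5.08 points (6.99 ± 2.16% in microglia, 1.91 ± 1.04% in total cells, SD, n = 4 each; exact permutation p = 0.0286, adjusted p = 0.142). Its number of peaks did overlap, at 6 to 10 in microglia and 2 to 8 in total cells. Of its 17 regions, 15 lay inside the gene more than 2 kb from either end. A block 8.7 to 10.6 kb inside the gene (101757577 to 101759519) was marked in all 8 libraries. A region 31.0 to 32.3 kb inside (101735896 to 101737176) was marked in all 4 microglia libraries, at percentiles 80.2 and 77.9 in 5XFAD and 63.2 and 68.5 in WT, and in total cells only in 5XFAD 1, at 4.96. Further regions 67.8 to 70.1 kb and 82.5 to 83.5 kb inside were marked in all 4 microglia libraries and in 3 of 4 total cell libraries, the exception being WT 2 both times. At the annotated start, a peak covered the start base itself in 1 library of each preparation. Peaks touched the window from 250 bases before to 50 after that start in 3 libraries of each. Its window is printed here because it is GC-rich (75.7%, above 95.7% of all promoter windows), with capitals for the SP letters GGGCGG, which occur 4 times:
Pik3r1 start, chr13:101768168-101768467, minus strand: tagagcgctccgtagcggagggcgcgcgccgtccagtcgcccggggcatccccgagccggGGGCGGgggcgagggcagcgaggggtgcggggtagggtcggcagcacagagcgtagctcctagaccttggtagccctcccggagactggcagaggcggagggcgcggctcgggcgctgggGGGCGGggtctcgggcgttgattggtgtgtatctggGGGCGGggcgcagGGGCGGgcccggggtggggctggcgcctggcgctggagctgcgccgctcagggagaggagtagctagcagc

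The AKT kinases, the PIP3-recruited effectors of the pathway, differed from each other in pattern. Akt1 (gene 11651, chromosome 12, 112653821 to 112674884, minus strand) was covered by 5.33% and 10.2% in 5XFAD microglia, against none and 1.94% in WT microglia. In total cells it was at 3.45% and 1.15% in 5XFAD and 2.99% and 0.798% in WT. The 5XFAD microglia values lay above both WT microglia values, whereas the total cell groups overlapped. The regions behind this were few. One region 6.37 to 7.23 kb inside (112667650 to 112668515) was marked in both 5XFAD microglia libraries, at percentiles 64.6 and 74.7, in WT 2 microglia at 24.4 and in 5XFAD 1 total cells at 46.4. Another 1.43 to 1.84 kb inside (112673046 to 112673450) was marked in both 5XFAD and no WT microglia library and, in total cells, in both WT and no 5XFAD library. The annotated start itself was under a peak only in 5XFAD 2 microglia, at percentile 8.2. Microglia and total cells overlapped for Akt1 (4.38 ± 4.49% and 2.1 ± 1.32%, SD, n = 4 each; exact permutation p = 0.429, adjusted p = 0.865).

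Akt2, the isoform best known for insulin-driven glucose uptake, had its highest-ranked peaks inside the gene, in regions that span listed inner starts (gene 11652, chromosome 7, 27591552 to 27640826, plus strand). Those peaks did not cover a listed start in every library. A region 13.9 to 16.8 kb inside (27605412 to 27608342) was marked in all 8 libraries. Its highest peak stood at percentiles 87.2 and 83.3 in 5XFAD microglia, 46.9 and 86.1 in WT microglia, as well as 77.6 and 74.6 in 5XFAD total cells and 76.1 and 78.7 in WT total cells. Most libraries had a pair of peaks there, and 5XFAD 2 microglia had a single peak of 2828 bp over the whole block. A region 4.77 to 5.64 kb inside (27596320 to 27597188) behaved differently, with a peak in all 4 total cell libraries (percentiles 50.6 and 67.7 in 5XFAD, 57.3 and 84.9 in WT) and in 1 microglia library, WT 2, at 25.5. RefSeq lists 4 starts for Akt2. The window of the outermost start held no peak in any library, that of the start 5.278 kb inside had one in 1 of 4 microglia and 4 of 4 total cell libraries, that of the start 14.245 kb inside in 3 of 4 and 4 of 4, and that 15.784 kb inside only in 5XFAD 2 microglia. The windows of the second and the third of these are printed because they carried the peaks, with capitals for the PU.1/ETS letters GAGGAA read on the other strand:
Akt2 start at 5.278 kb, chr7:27596580-27596879, plus strand: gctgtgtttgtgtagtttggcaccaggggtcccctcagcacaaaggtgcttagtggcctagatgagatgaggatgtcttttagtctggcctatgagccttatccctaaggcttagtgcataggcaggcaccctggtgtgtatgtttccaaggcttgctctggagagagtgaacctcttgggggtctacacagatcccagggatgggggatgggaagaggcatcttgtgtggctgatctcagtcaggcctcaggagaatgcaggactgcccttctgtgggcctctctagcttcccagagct
Akt2 start at 14.245 kb, chr7:27605547-27605846, plus strand: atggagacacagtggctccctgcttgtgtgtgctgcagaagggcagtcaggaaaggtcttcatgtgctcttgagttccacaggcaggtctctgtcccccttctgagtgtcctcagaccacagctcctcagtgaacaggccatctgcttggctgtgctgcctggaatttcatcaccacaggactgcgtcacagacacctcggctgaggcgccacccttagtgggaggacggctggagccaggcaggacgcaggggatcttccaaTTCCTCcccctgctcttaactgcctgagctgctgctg
These windows hold few CpG pairs, 0 in the first and 5 in the second, against a median of 13 over all 21263 promoter windows of protein-coding genes.

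**Figure D2:**
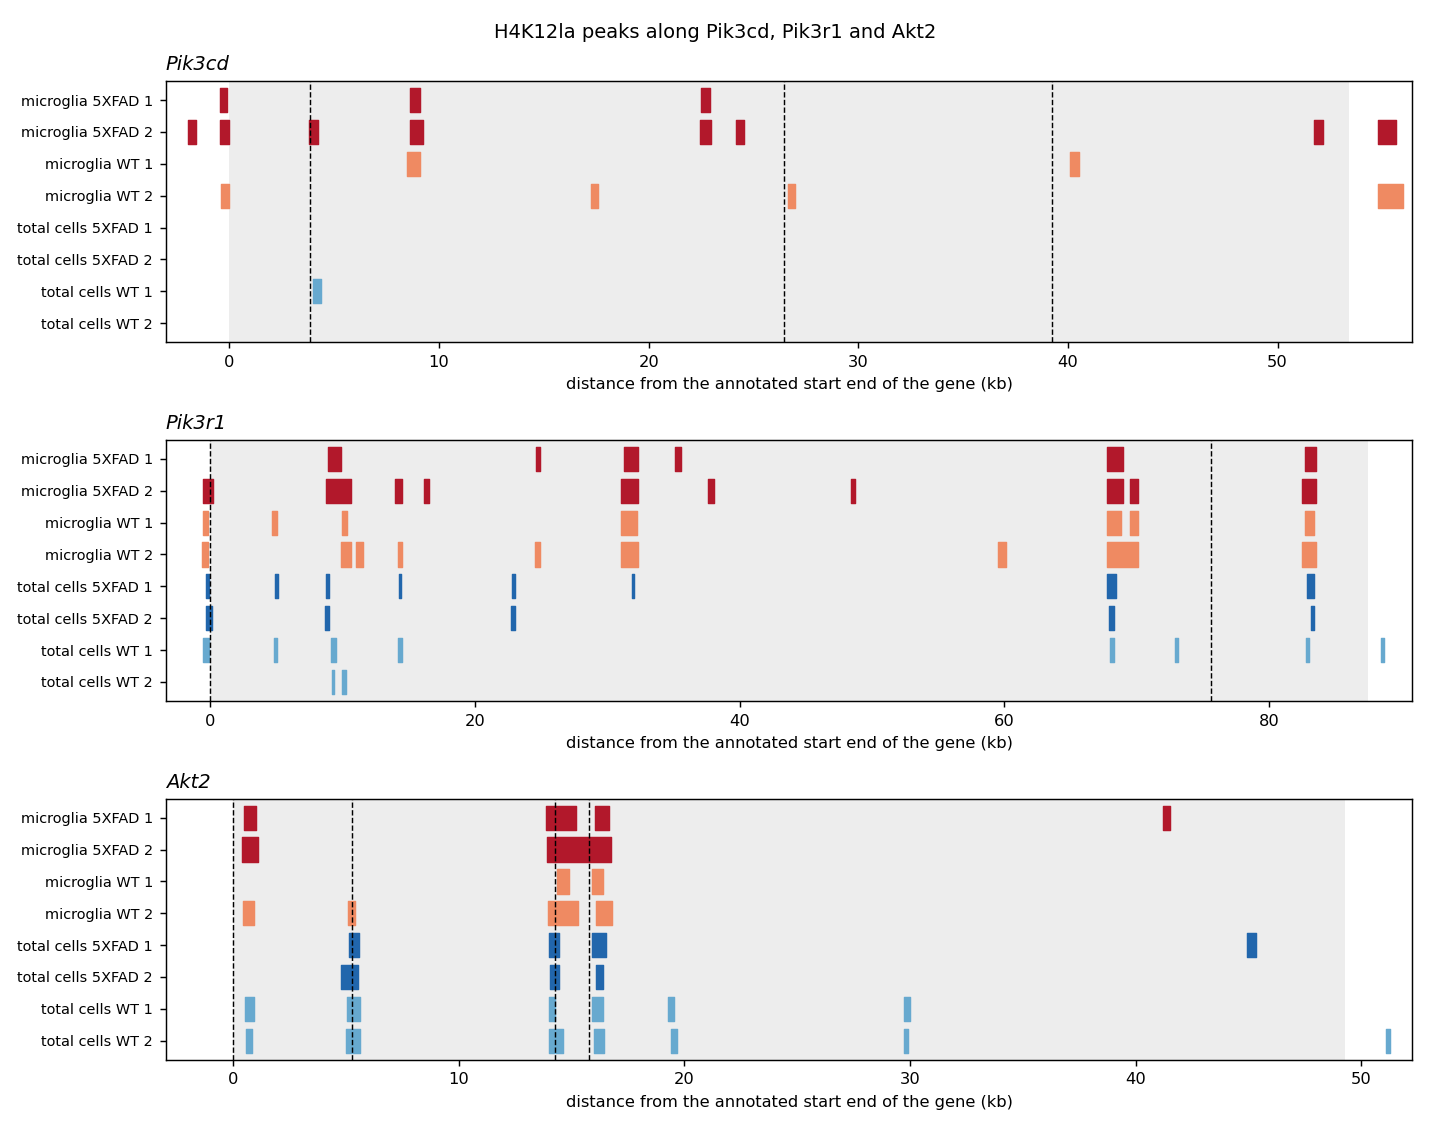
Peaks (bars, drawn to width) along Pik3cd, Pik3r1 and Akt2, as distance in kb from the annotated start end, 1 row per library; grey marks the gene and dashed lines the starts listed by RefSeq. The bars near 14 to 17 kb in Akt2 (13.9 to 16.8 kb) are present in all 8 rows, and the rows of total cells are nearly empty for Pik3cd.

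Total cells of WT mice had more Akt2 peaks than those of 5XFAD mice. Peaks numbered 4 and 3 in 5XFAD total cells and 6 and 7 in WT total cells, and covered 3.65% and 2.79% against 4.38% and 4.66%. The 2 groups did not overlap on either measure, as in 3.68% of all genes by number of peaks and 5.64% by covered percent. A region 0.4 to 1.11 kb inside (27591952 to 27592666), one 19.3 to 19.6 kb inside (27610836 to 27611200) and one 29.7 to 30 kb inside (27621269 to 27621557) had a peak in both WT and in no 5XFAD total cell library, a pattern of 3.30% of all 73355 merged regions. The first of the 3 was also marked in 3 of 4 microglia libraries. In microglia, Akt2 was covered by 5.11% and 6.65% in 5XFAD and 1.94% and 5.39% in WT, which overlapped. Between the preparations Akt2 overlapped too (4.77 ± 2.01% in microglia, 3.87 ± 0.837% in total cells, SD, n = 4 each; exact permutation p = 0.457, adjusted p = 0.912).

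The TSC genes encode the brake on mTOR complex 1. Tsc1, encoding hamartin, which stabilises TSC2, had a single region in its whole window of 54180 bp (gene 64930, chromosome 2, 28640993 to 28691172, plus strand). This region, at 28640836 to 28641597, lay over the listed start and was marked in all 4 microglia libraries, in 5XFAD 1 and in WT 1 total cells. It covered 0.661% and 0.744% of the window in 5XFAD and 0.506% and 0.52% in WT microglia, against 0.814% and none in 5XFAD and 1.39% and none in WT total cells. The percentile of the peak was 54.2 and 78.3 in 5XFAD and 5.78 and 19.8 in WT microglia, and 36.2 and 71.0 in the total cell libraries that had it. The 5XFAD microglia values were above the WT ones on both measures, but percentiles in lists of different length do not compare the strength of the mark. Covered percent divided by the share of the chromosomes each list covers overlapped (0.814 and 0.558 in 5XFAD, 0.899 and 0.542 in WT microglia). The preparations overlapped in covered percent (0.608 ± 0.115% in microglia, 0.552 ± 0.68% in total cells, SD, n = 4 each; exact permutation p = 0.943, adjusted p = 1.0). The start window is printed as the only marked part of the gene; none of the motifs searched occurs in it:
Tsc1 start, chr2:28640983-28641282, plus strand: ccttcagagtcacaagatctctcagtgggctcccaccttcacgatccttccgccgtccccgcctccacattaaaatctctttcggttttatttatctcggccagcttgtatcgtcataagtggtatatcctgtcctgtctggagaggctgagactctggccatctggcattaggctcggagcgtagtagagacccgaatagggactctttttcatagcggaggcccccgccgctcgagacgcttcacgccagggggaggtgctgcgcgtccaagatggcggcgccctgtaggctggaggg
Tsc2 encodes tuberin, the partner that acts on Rheb (gene 22084, chromosome 17, 24595816 to 24632676, minus strand). Peaks covered none and 3.43% of its window in 5XFAD and none and 1.3% in WT microglia, against 2.11% and 1.27% in 5XFAD and 1.47% and 0.436% in WT total cells. The groups overlapped between the preparations, with means of 1.18 ± 1.62% in microglia and 1.32 ± 0.692% in total cells (SD, n = 4 each; exact permutation p = 0.857, adjusted p = 1.0). Its 5 regions were scattered, and both end regions lay in or over a neighbour: the one at 24594400 to 24595493 overlapped Pkd1, and the one at the start, at 24632522 to 24633483, overlapped Nthl1. A peak there cannot be assigned to Tsc2 rather than the neighbour.

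Mtor, the kinase, was marked inside the gene in both preparations, and around its start in 3 total cell and no microglia library (gene 56717, chromosome 4, 148448582 to 148557685, plus strand). In 2 of those 3 libraries the peak covered the start base itself. Peaks covered 3.88% and 5.41% of the window in 5XFAD and 3.57% and 4.71% in WT microglia, against 1.73% and 0.989% in 5XFAD and 1.11% and 0.747% in WT total cells. The preparations did not overlap (4.4 ± 0.831% in microglia, 1.14 ± 0.417% in total cells, SD, n = 4 each; difference 3.25 points, exact permutation p = 0.0286, adjusted p = 0.142). The numbers of peaks were close, 4 to 5 against 3 to 4. The strongest region, 51.2 to 53.2 kb inside (148499822 to 148501809), reached percentiles 95.0 and 98.6 in 5XFAD with 95.8 and 93.5 in WT microglia. In total cells it stood at 70.6 and 48.0 in 5XFAD and at 30.5 in WT 1, with no peak in WT 2. It and the neighbouring region 49.0 to 50 kb inside (148497546 to 148498539), which was in all 4 microglia and no total cell library, overlap Angptl7, a gene that lies within Mtor, and cannot be assigned to either. Another region in all 4 microglia libraries, 68.6 to 70.4 kb inside, overlaps no other protein-coding gene. The far-end region in 7 libraries overlaps Exosc10. The start region (148448283 to 148448771) had a peak in both 5XFAD and in WT 2 total cells, at percentiles 64.5, 70 and 69.1, and in no microglia library. Of all promoter windows, 1.71% had a peak in at least 3 total cell and no microglia library. The Mtor window is printed for this contrast, with capitals for GGGCGG and GAGGAA, both read on the other strand:
Mtor start, chr4:148448332-148448631, plus strand: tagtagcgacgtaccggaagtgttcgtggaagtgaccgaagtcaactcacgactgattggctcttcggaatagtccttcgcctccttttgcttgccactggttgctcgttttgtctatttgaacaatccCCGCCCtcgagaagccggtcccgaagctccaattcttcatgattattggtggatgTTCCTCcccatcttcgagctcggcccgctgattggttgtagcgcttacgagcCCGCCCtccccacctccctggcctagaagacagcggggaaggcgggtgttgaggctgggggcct

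Rptor encodes Raptor, the scaffold that brings substrates to mTOR complex 1, and was the longest of the 8 genes (gene 74370, chromosome 11, 119602905 to 119899591, plus strand, 296687 bp). Its peaks numbered 22 and 29 in 5XFAD and 18 and 23 in WT microglia, against 17 and 12 in 5XFAD and 13 and 7 in WT total cells. They covered 5.67% and 9.61% of the window in 5XFAD and 3.97% and 6.68% in WT microglia, against 2.2% and 1.08% in 5XFAD and 1.57% and 0.757% in WT total cells. Every microglia library was above every total cell library on both measures (covered percent 6.48 ± 2.36% and 1.4 ± 0.629%, SD, n = 4 each; difference 5.08 points, exact permutation p = 0.0286, adjusted p = 0.142). Of 39 merged regions, 10 were marked in all 4 microglia libraries and none in all 4 total cell libraries. The strongest, 211 to 212 kb inside (119813500 to 119814928), stood at percentiles 96.0 and 98.3 in 5XFAD and 83.6 and 98.1 in WT microglia, and at 67.8, 36 and 22.7 in both 5XFAD and in WT 2 total cells. Regions 12 to 13 kb, 213 to 215 kb and 272 to 273 kb inside were in all 4 microglia and in no total cell library. The start region (119602860 to 119603309) was marked in 3 microglia libraries, at percentiles 17.0 and 25.1 in 5XFAD and 42.8 in WT 2, and in both 5XFAD total cell libraries, at 87.7 and 88.0. Ranks in lists of different length do not compare the strength of the mark, and the peaks were 286, 344 and 382 bp wide in these microglia libraries and 206 and 300 bp wide in 5XFAD total cells. At the far end, a region 295 to 296 kb inside was marked in 1 microglia library, in 5XFAD 2 and in both WT total cell libraries.

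The 8 windows held 94 merged regions. Of these, 74 were more than 2 kb from either end (78.7% of the regions in 91.3% of the window bases), 36 of them in Rptor. The 4 kb around the start ends touched 10 regions and those around the far ends another 10 (10.6% of the regions and 4.35% of the bases each), and 9 regions covered a listed start. Of the 94, 2 were marked in all 8 libraries (7.19% of all merged regions of the genome), 20 in all 4 microglia libraries (21.3%, against 22.8% of all) and 4 in all 4 microglia and no total cell library (4.51% of all). No region was in all 4 total cell and no microglia library (1.34% of all). These shares are near or below the background. A single library held 31 of the 94 (33%, against 37.9% of all). Regions seen in microglia only were 36 (38.3%, against 31.3% of all) and in total cells only 18 (19.1%, against 33.3% of all). Of the 186 microglial peaks 8 (4.3%) stood above percentile 90 of their list, and 0 of 122 in total cells did. By definition about 90% of a whole list lies at or below that level. By genotype, 4 regions were in both 5XFAD and no WT microglia library (6.11% of all) and 1 in both WT and no 5XFAD microglia library (1.23% of all), with 5 each way in total cells (5.47% and 3.30% of all). All 15 listed starts of the 8 genes had a promoter window in the RefSeq table, and 10 of these had a peak in at least 1 library and 0 in all 8 (10.6% of all windows), while 5 had none (55.0% of all windows). No window of Tsc1, Tsc2 or Rptor holds the SP letters, which occur in 46.2% of all promoter windows on either strand. The letters GAGGAA occur in 27.4%, ACGTG of the hypoxia factor in 20.9%, the E-box CACGTG, which contains ACGTG, in 7.84%, the FOXO letters TGTTTAC in 3.01% and the CRE letters TGACGTCA in 2.23%. Among the 8 genes, ACGTG occurs once each in windows of Akt2, Pik3cd and Rptor, TGTTTAC once in the outer window of Akt1, and CACGTG and TGACGTCA in none. Such matches only describe the letters.

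**Figure D3:**
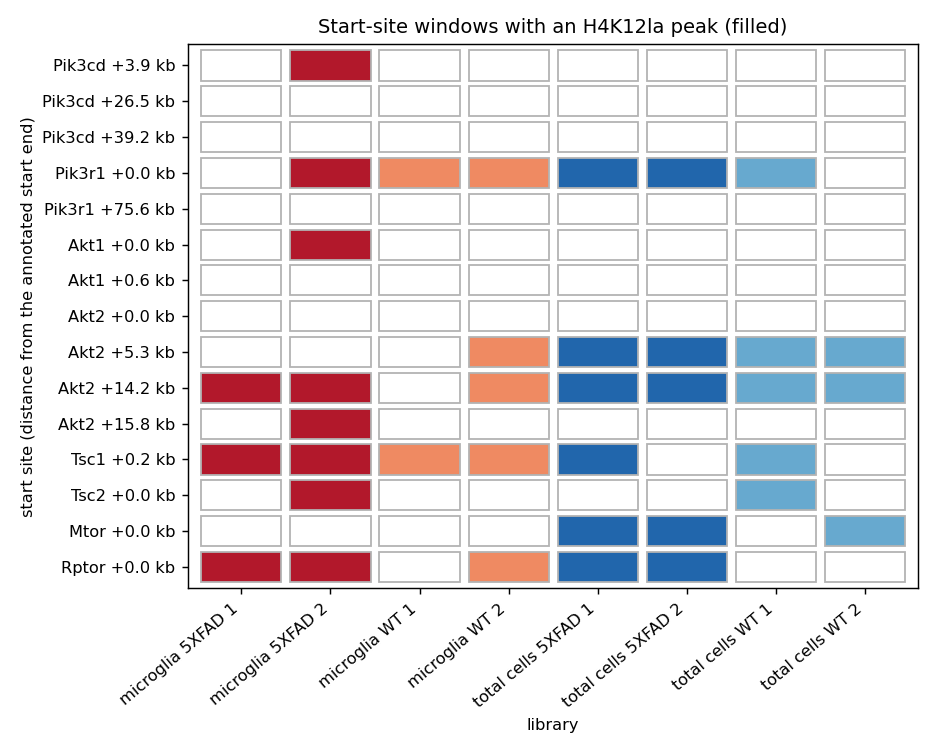
Windows from 250 bases before to 50 after each listed start (rows, with the distance of the start from the annotated start end in kb) against the 8 libraries; a filled box is a window with a peak. Mtor is filled in 3 total cell columns and in no microglia column, and the Akt2 start at +14.2 kb in all columns but WT 1 microglia.

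Set against total cells as a whole, microglia had 4 of the 8 genes higher without overlap (50%, against 18.5% of all genes) and 0 lower (1.64% of all genes). By exact permutation 20.2% of all genes reached the smallest p and 0 passed an adjusted p of 0.05. Since microglial lists cover 2.45 times as many bases on average, the covered percent was also divided by the share of the chromosomes each list covers. On this density, added after the data were seen, Pik3cd, Mtor and Rptor stayed higher in every microglia library (6.94% of all genes), Pik3r1 overlapped, and Akt2 was lower in every microglia library than in every total cell library (9.55% of all genes). The density of Akt2 was 6.29 and 4.99 in 5XFAD and 3.44 and 5.61 in WT microglia, against 6.73 and 8.82 in 5XFAD and 12.4 and 16.3 in WT total cells. The direction for Akt1 and Tsc1 also turned with the scaling, and their groups overlapped under both. By number of peaks, Pik3cd and Rptor were higher in every microglia library (4.30% of all genes), and 0 in every total cell library (2.26% of all genes). Between the 2 kb end windows alone, 0 of the 8 genes were higher in microglia without overlap (13.1% of all genes).

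**Figure D4:**
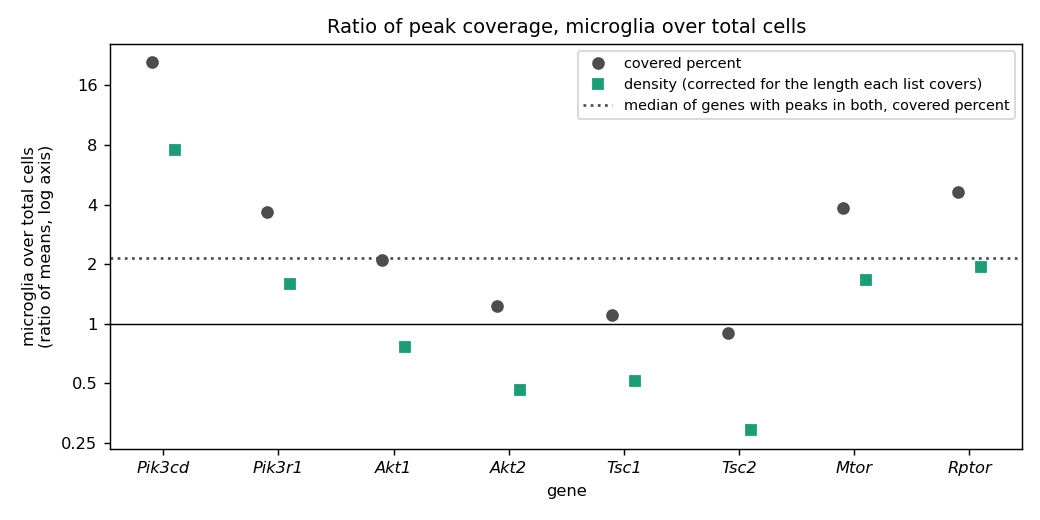
Ratio of the mean over 4 microglia to the mean over 4 total cell libraries for each gene, on a log axis, for the covered percent (circles) and for the density (squares); the dotted line is the median ratio of covered percent, 2.15, over the 11705 genes with peaks in both preparations, and no error is drawn. Pik3cd, Pik3r1, Mtor and Rptor lie above 1 on both, and Akt1, Akt2 and Tsc1 above 1 on covered percent and below 1 on density.

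Between genotypes, Akt1 and Tsc1 were higher in both 5XFAD than in both WT microglia libraries (2 of 8 genes, against 19.1% of all genes), and 0 of 8 showed the opposite (1.78% of all genes). In total cells 0 of 8 were higher in both 5XFAD libraries (16.6% of all genes) and 1, Akt2, was higher in both WT libraries (5.64% of all genes). The difference between 5XFAD and WT microglia was 6.81 percentage points for Akt1 and 0.189 for Tsc1, and that between 5XFAD and WT total cells was -1.3 for Akt2. Over both preparations the largest difference was that of Akt1, at 3.61 points (exact permutation within preparations, p = 0.111, adjusted p = 1.0, n = 4 each). The smallest p this design allows is 0.0556, and 0.333 within 1 preparation, so no gene could pass 0.05; 5.63% of all genes reached 0.0556 and 0 passed after adjustment. The microglia lists covered 1.41 times as many bases in 5XFAD as in WT mice and the total cell lists 1.34 times. In total cells the summed covered percent of the 18 microglial markers was 21.3 and 41.5 in 5XFAD and 10.5 and 14.2 in WT. The vascular sums were likewise 3.64 and 7.69 in 5XFAD and 0.704 and 1.44 in WT, and the oligodendrocyte sums 3.77 and 8.34 in 5XFAD and 0.182 and 3.74 in WT. Those of other leukocytes were 0.384 and 4.96 in 5XFAD and 0 and 0.226 in WT. The genotypes overlapped for astrocytes (8.01 and 9.7 in 5XFAD, 7.73 and 9.02 in WT) and for neurons (0 and 0.988 in 5XFAD, 0.086 and 0.133 in WT). The part of cell makeup in the genotype values was not tested. Single libraries decided these counts. Without 5XFAD 1 microglia 8 of 8 genes were higher in the remaining 5XFAD library than in both WT libraries (45.9% of all genes), and without WT 2 microglia 7 of 8 were higher in 5XFAD (39.2% of all genes). In 5XFAD total cells 5 of 8 were higher without 5XFAD 2 (37.6% of all genes) and 5 of 8 without WT 1 (25.4% of all genes), and without WT 2 total cells 3 of 8 were higher in WT (14.4% of all genes). Akt1 in microglia and Akt2 in total cells kept their pattern in all 13 alternatives run for each. Tsc1 in microglia kept it in 11 of 13 and lost it by number of peaks and by density, which was 0.814 and 0.558 in 5XFAD and 0.899 and 0.542 in WT microglia. Leaving out 1 library cannot undo a pattern without overlap, so those among the 13 alternatives could not fail.

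Of 58 further genes, all matched in the annotation, 30 had a peak in all 8 libraries (51.7%, against 26.7% of all genes) and 1 in none (34.0% of all genes). In microglia 27 were higher without overlap (46.6%, against 18.5% of all genes) and 0 lower (1.64% of all genes). Both 5XFAD microglia libraries exceeded both WT libraries at 17 genes (29.3%, against 19.1% of all) and the opposite held at 0 (1.78% of all). In total cells 21 genes were higher in both 5XFAD libraries (36.2%, against 16.6% of all) and 3 in both WT libraries (5.17%, against 5.64% of all). Window length was not matched in these counts. The 8 genes with the highest mean percentile of their best peak, among those marked in every library, were Tfeb, Phlpp2, Inpp5d, Gsk3b, Pik3ap1, Rraga, Sesn1 and Foxo1. Tfeb, the lysosomal transcription factor that mTOR complex 1 restrains, led at 97.2 ± 1.07 (SD, n = 8). Inpp5d, encoding the lipid phosphatase SHIP1 of leukocytes that removes PIP3, was at 91.5 ± 7.14 (SD, n = 8) and covered 17.1 ± 5.36% of its window in microglia and 2.77 ± 1.48% in total cells (SD, n = 4 each). Gsk3b, a kinase inhibited by AKT, was at 91.2 ± 5.97, and Rraga, encoding the Rag GTPase that brings mTOR complex 1 to the lysosome, at 87.1 ± 8.8 (SD, n = 8). Rps6kb2, an S6 kinase, and Irs2, an insulin receptor substrate, named after their values were seen, had a peak in all 4 microglia and no total cell library (1.20% of all genes).

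The genes of other chromosomes whose covered percent followed 7 of the 8 genes most closely across the 8 libraries were found by Pearson correlation among genes with a peak in at least 4 libraries. For Pik3r1 they were Atxn2 and Rrp1b (r = 0.997 and 0.995), for Mtor Slc1a3 and Daglb (r = 0.998 for both) and for Rptor Mlh3 and Arid5b (r = 0.998 and 0.997). Akt1 was closest to Iqsec1 and Herpud2 (r = 0.992 and 0.988) and Akt2 to Scube1 and Anapc4 (r = 0.964 and 0.956). Tsc1 was closest to Rnf39 and Mrps6 (r = 0.882 and 0.860) and Tsc2 to Stau2 and Rbm26 (r = 0.991 and 0.978). These are the highest of at least 10518 correlations for each gene on 8 points that share list length and peak width, and are given as a description.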

How the data were processed

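The authors deposited 1 peak list per library, 8 in all, without a header, each line giving chromosome, start, end and a whole-number score with no stated unit, whose lowest value was 20 in every list. The submitters' processing notes name Bowtie2, deepTools and fastp 0.19.6 and build GRCm38, while no label names the peak caller or a control. Scores were used only as ranks within a list. Starts were read as counted from 0 and are printed counted from 1. Gene spans and promoter windows came from RefSeq tables of GRCm38.p6, with strand from the promoter table, which covers 17492 of the genes. Covered percent is the union of peaks within a gene window over its length. Preparations were compared by an exact two-sided permutation test over 70 assignments and genotypes over 36 arrangements within preparations, on all 21887 protein-coding genes with Benjamini-Hochberg adjustment, using Python 3.11.15, numpy 2.4.6 and pandas 2.3.3. Genes and lists were chosen with earlier results of these data known. All 8 members, up to 8 further pathway genes by percentile and the 2 most similar genes of each member are named, except those of Pik3cd, which are not reported here. Alternatives were equal list lengths (22300 peaks), score limits, other windows, peak midpoints, number of peaks, density and leaving out each library. The interval code was tested on simulated data. The most identical intervals shared by 2 lists was 193, and no library was counted as a copy.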

Additional observations from a re-analysis of the deposited data

Results flagged for a closer look

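Among the 16 sets of 4 libraries examined (8 genes in microglia and in total cells), 1 held a library far from its fellows. Pik3cd was covered by 0.641% in WT 1 total cells and by none in the other 3 total cell libraries. The gap rests on a single peak of 368 bp in a region 3.78 to 4.38 kb inside the gene. With the other 3 values at 0, any value above 0 would have stood apart, so the rate of about 5% by which chance marks a set of 4 spread values does not apply to it.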

How the results depend on the processing

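Across the alternatives, 0 genes passed an adjusted p of 0.05 in either contrast. Mtor had a peak in all 8 libraries in all 15 alternatives, and Rptor was higher in microglia without overlap in 16 of 17, Mtor in 15, Pik3r1 in 14 and Pik3cd in 13. Leaving out 1 library cannot undo either pattern, so those alternatives could not fail. With equal list lengths, 2 genes (Pik3cd and Mtor) were higher in WT microglia (4.72% of all genes) and 1 in 5XFAD total cells (15.1%); with a score of at least 50 the count in 5XFAD total cells was 3 (13.8%), with peaks above each list's median score 2 (12.8%), and with no flank 1 (14.9%). That median limit left 2 genes marked in all 8 libraries (14.2%). Gene-end windows left 2 marked in all 8 (17.7%), 0 higher in microglia (13.1%), 1 higher in WT microglia (2.29%) and 3 higher in WT total cells (4.83%). By number of peaks 2 genes were higher in microglia (4.30%) and 1 in 5XFAD microglia (8.8%). By density 1 was higher in total cells (9.55%), 1 in 5XFAD microglia (12.9%) and 2 in WT microglia (11%). Leaving out 1 library gave 2 to 8 genes higher in 5XFAD microglia (20% to 45.9% of all genes). It gave 0 to 5 in 5XFAD total cells (20.2% to 37.6%) and 1 to 3 in WT total cells (7.15% to 16.6%). Microglia minus total cells turned sign for Tsc1 with equal list lengths (-0.0743) and density (-0.659), for Tsc2 with a score of at least 50 (0.894) and 5 kb flanks (0.171), for Pik3cd with the median limit (-0.16), for Akt1 by density (-1.25) and for Akt2 by number of peaks (-2.0) and density (-5.98). 5XFAD minus WT turned with equal list lengths for Pik3cd (-0.862), Pik3r1 (-0.0251), Mtor (-0.28) and Tsc1 (0.0798), for Tsc1 with either score limit (0.00277), for Pik3cd with the median limit (-0.16), with gene-end windows for Akt2 (-0.328), Pik3r1 (-0.244) and Rptor (-9.7), for Akt2 by number of peaks (-1.5), and by density for Akt2 (-2.73), Pik3cd (-0.114), Pik3r1 (-0.635) and Mtor (-0.47). Leaving out 1 library gave 5XFAD minus WT of -0.26 to 1.05 for Akt2, -0.634 to 1.58 for Pik3cd, -0.833 to 2.09 for Pik3r1, -0.337 to 1.19 for Mtor, -0.26 to 2.58 for Rptor and -0.252 to 0.213 for Tsc1, and microglia minus total cells of -0.128 to 0.336 for Tsc1 and -0.888 to 0.256 for Tsc2. The causes were not tested. Same-numbered libraries did not deviate together in all pairs of groups (Pearson r over all genes from -0.288 to 0.487), so the numbers are not taken as pairs. With the replicate number as a block, the smallest possible p is 0.125 (exact permutation). Pik3cd, Pik3r1, Mtor and Rptor reached it for microglia against total cells (exact permutation in blocks, adjusted p = 0.461 each). For 5XFAD against WT, Akt1, Pik3r1, Mtor and Rptor did (exact permutation in blocks, adjusted p = 0.84 each). The share of all genes at this p is not given, so these counts have no background. In every same-numbered pair the 5XFAD list held more peaks than the WT list. These were 29947 against 22300 and 41783 against 33500 in microglia, and 32967 against 25271 and 22807 against 22543 in total cells. The part of list length was not tested. In either contrast 0 genes passed after adjustment.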
